A study of Mus musculus with 4 samples.

Results

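Ccl5-low CD8 T cells of naive type were taken from the stromal vascular fraction of mouse inguinal fat, the mixed cells left after enzyme digestion of the tissue. They were chosen by a rule on raw counts of unique molecular identifiers (UMIs, 1 for each RNA molecule captured). A cell barcode had to show at least 500 genes and under 15% mitochondrial UMIs, at least 2 UMIs of Cd3e, Cd3d and Cd3g together, at least 1 of Cd8a and Cd8b1 together, and under 2 of Ccl5. Barcodes with 2 or more UMIs of the natural killer genes Ncr1 and Klre1, any UMI of the B cell gene Cd79a, or 3 or more of the macrophage genes C1qa and C1qb were left out. The rule found 1248 members among 15721 kept cells, out of 19218 barcodes. The study compared 2 libraries from mice held at 4 °C for 24 h (cold) with 2 libraries from mice held at room temperature for 24 h (RT), to ask how the cells of the fat pad respond to cold. All mice were C57BL/6 and 8 weeks old, and all libraries were made with the 10x Genomics 3′ v3 kit after 40 min of collagenase digestion at 37 °C. The labels name the fourth inguinal pad, which also holds mammary gland, but give no sex, no number of mice per library, no room temperature in degrees and no word on the lymph node that lies in this pad. The libraries are therefore treated as replicates of a group, so a p-value here reflects variation from library to library, which may be technical.

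Naive CD8 T cells are lymphocytes that have left the thymus but have not yet met their antigen. They circulate between blood and lymphoid tissue, which they enter with the help of the chemokine receptor encoded by Ccr7 and leave with the sphingosine phosphate receptor encoded by S1pr1. The transcription factors Tcf7, Lef1 and Klf2 and the interleukin 7 receptor chain Il7r keep them quiescent and alive. After antigen contact they lose part of this programme and make effector products such as Ccl5, a chemokine of memory and effector CD8 cells.

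The members were spread over all libraries, numbering 546 and 256 in cold and 251 and 195 in RT. Their median depth was 5110 and 8559 UMIs in the cold libraries against 4503 and 8543 in the RT libraries, so that replicate 2 was the deeper library in both groups. Between 5 and 10 barcodes occurred in both libraries of a pair, and 0 of these were members. A doublet score called 35, 9, 23 and 9 members doublets. Marker genes of other cell types showed more. Of 44 markers of 11 other cell types (epithelium, fibroblasts, endothelium, pericytes, Schwann cells, red cells, macrophages, dendritic cells, neutrophils and B cells), 54 and 74 members of the cold libraries and 49 and 47 members of the RT libraries held 20 or more UMIs. These 224 barcodes made up 9.89% and 28.9% of the cold members and 19.5% and 24.1% of the RT members. They were deep, and held 27.8% and 50.7% of all member UMIs in cold against 45.5% and 39.2% in RT. Macrophage markers led in 61 of them, fibroblast markers in 56, luminal epithelial markers in 55 and markers of other types in the rest. Leaving them out gave a restricted set of 1024 members (492 and 182 cold, 202 and 148 RT). This limit was chosen after seeing the data, so results over all members are given first and those of the restricted set as an added alternative beside them.

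The label was checked against marker genes in the restricted set, as CPM (UMIs of the gene over all UMIs of the summed cells, on the usual CPM scale with no further scaling). Values of the cells picked by the rule are a description here, with no test. Dapl1, a marker of naive CD8 cells, stood at 561 and 557 CPM in the cold libraries and at 388 and 350 CPM in the RT libraries. In CD8 cells with 2 or more Ccl5 UMIs it stood between 103 and 208 CPM, and in kept cells with no Cd3 UMI between 0.751 and 2.38 CPM. In CD4 cells it was 275 and 64.6 CPM in the cold libraries and 241 and 91.7 CPM in the RT libraries. Lef1 averaged 285 CPM over the 4 libraries, against 165 CPM in the Ccl5-high CD8 cells and 219 CPM in CD4 cells. Tcf7 averaged 322 CPM, against 219 CPM in the Ccl5-high CD8 cells and 288 CPM in CD4 cells. In cold replicate 1, CD4 cells were above the members, at 346 against 316 CPM for Lef1 and 401 against 327 CPM for Tcf7. In cold replicate 2 and both RT libraries the members were above the CD4 cells for both genes. Trbc2, a constant gene of the T cell receptor, stood at 1530 and 1677 CPM in the cold libraries and at 1657 and 1765 CPM in the RT libraries. Il7r was no mark of this class, since its mean of 462 CPM stood beside 463 CPM in Ccl5-high CD8 cells and 467 CPM in CD4 cells.

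Some members also carried genes of antigen-experienced cells. Klrd1 averaged 200 CPM, against 191 CPM in the Ccl5-high cells, and the resident memory receptor gene Cxcr6 averaged 44.9 CPM, against 36.3 CPM there. The granzyme gene Gzmm averaged 4.98 CPM, against 55.8 CPM in the Ccl5-high cells, and Gzmk was 1.77 and 3.51 CPM in the cold libraries and at 0 in both RT libraries, against 3.02 to 6.75 CPM in the Ccl5-high cells. Nkg7, a granule gene of cytotoxic cells, averaged 459 CPM, against 643 CPM in the Ccl5-high cells and 45.7 CPM in CD4 cells. Restricted members with at least 2000 UMIs were thinned to that number, which left 478 and 162 cold and 197 and 147 RT cells and left out 14 and 20 cold and 5 and 1 RT cells. Ccr7 was then found in 56.1% and 48.1% of cold cells and in 68.5% and 74.8% of RT cells. Cxcr6 was found in 10.5% and 12.3% of cold cells and in 6.09% and 2.72% of RT cells, at a share between 0.147% and 0.479% in kept cells with no Cd3 UMI. Without thinning, the Cxcr6 shares of the same cells were 24.7% and 32.7% in cold cells and 13.2% and 15.0% in RT cells. Median depths behind the unthinned shares were 5012 and 7768.5 UMIs in the cold libraries against 4244 and 7940 in the RT libraries.

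**Figure D1:**
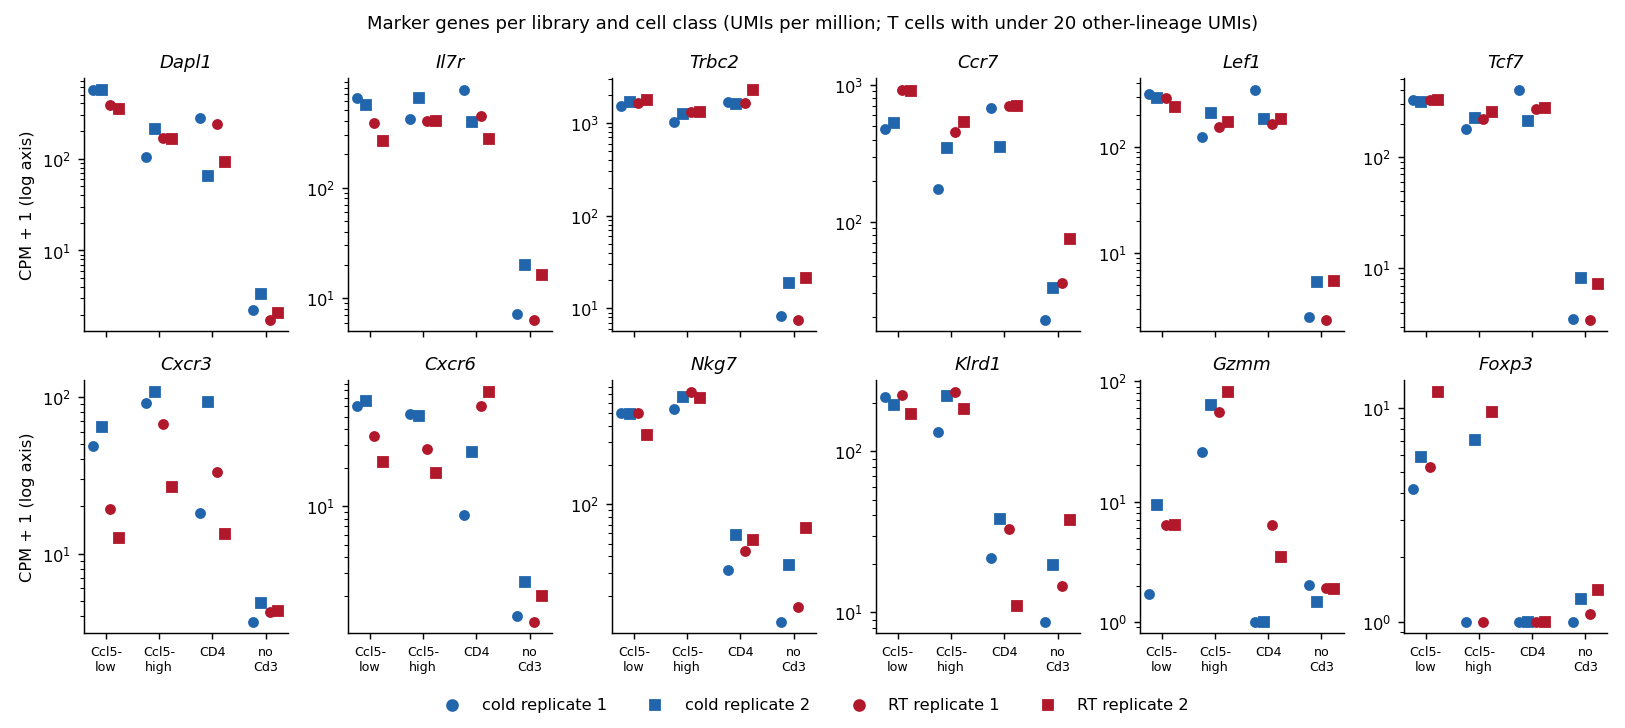
Level of 12 marker genes in each library (CPM + 1, log axis) for restricted Ccl5-low CD8 cells, Ccl5-high CD8 cells, CD4 cells and kept cells with no Cd3 UMI, with cold in blue and RT in red. Dapl1 was between 350 and 561 CPM in the Ccl5-low cells and under 2.5 CPM in cells with no Cd3 UMI, while Gzmm was higher in the Ccl5-high cells in all 4 libraries.

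The Ccl5 limit cut through few cells. Of the members, 1151 had no Ccl5 UMI and 97 had 1, while just outside the limit 43 cells had 2 UMIs, 19 had 3 and 273 had more than 3. At the lower edge of the CD8 limit, 112 members had a single Cd8a or Cd8b1 UMI. A UMI of Cd4 was found in 90 members, one of the regulatory T cell factor Foxp3 in 30 and one of the gamma-delta receptor gene Trdc in 29.

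Members took a larger share of the kept cells in the cold libraries, at 13.4% (95% exact binomial interval 12.4% to 14.5%) and 8.41% (7.45% to 9.45%), against 4.59% (4.05% to 5.18%) and 6.20% (5.38% to 7.10%) in the RT libraries. These intervals cover counting error only. The groups did not overlap, with means of 10.9 ± 3.56% in cold and 5.40 ± 1.14% in RT (SD, n = 2 each), a 2.03-fold difference. An exact permutation test over the 4 libraries, two-sided, gave p = 0.33, the smallest value this design can give. The share depends on how many other cells were captured. Among cells with 2 or more Cd3 UMIs the members made up 50.2% and 31.6% in cold and 38.1% and 25.8% in RT, and these groups overlapped (exact permutation p = 0.667). Among all cells of the CD8 gate, whatever their Ccl5, members made up 84.5% and 72.7% in cold and 79.4% and 72.5% in RT (exact permutation p = 0.667). That difference of 2.66 percentage points turned to -3.23 without cold replicate 1, to -0.807 without RT replicate 2 and to -2.02 with cells of at least 2000 UMIs thinned to that number. No shift with temperature between Ccl5-low and Ccl5-high CD8 cells was detectable with these libraries.

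**Figure D2:**
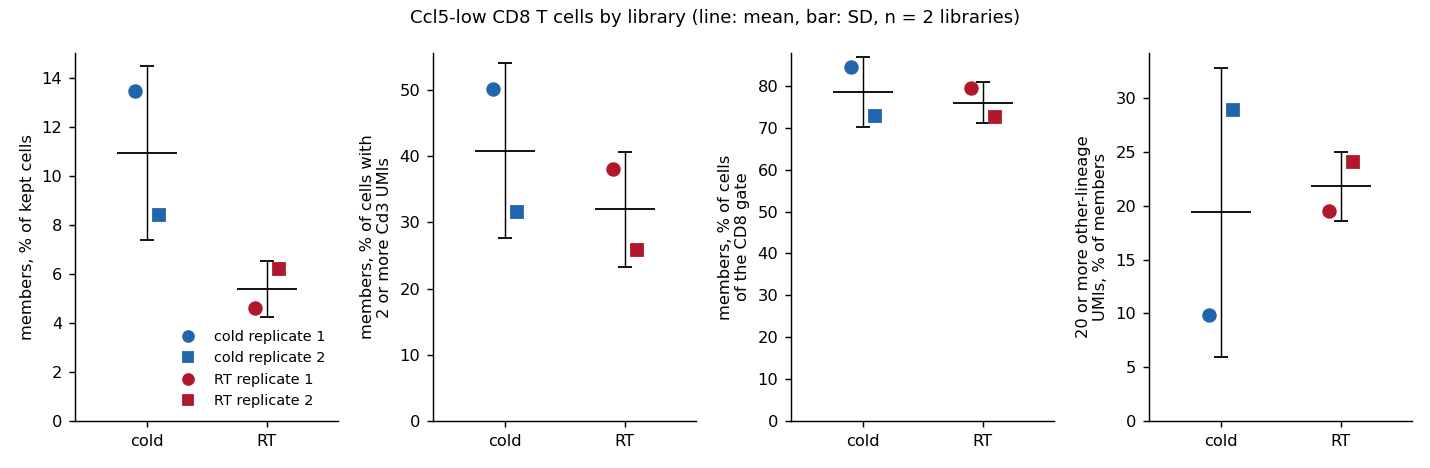
Share of members among kept cells, among cells with 2 or more Cd3 UMIs and among cells of the CD8 gate, and the share of members with 20 or more UMIs of other cell types, in percent by library (line, mean, bar, SD, n = 2 libraries). Only in the first panel do the 2 cold libraries, at 13.4% and 8.41%, both stand above the RT libraries, at 4.59% and 6.20%.

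Over all 1248 members, 7 genes fell in cold and 0 rose among 10755 tested (edgeR quasi-likelihood test on UMIs summed per library, Benjamini-Hochberg adjusted p under 0.05). That is 0.0651% of the genes tested for the falls and 0% for the rises. At an unadjusted p under 0.05 there were 1254 genes, and DESeq2 called 79 genes, 15 higher and 64 lower. The 7 genes were Acta2, Myh11, Tagln, Tpm2, Myl9, Cxcl14 and Col4a1. The first 5 encode parts of the contractile apparatus of smooth muscle and of the myoepithelial cells around mammary ducts, Col4a1 encodes a basement membrane collagen and Cxcl14 a chemokine. None of the 7 belongs to a T cell programme. Acta2, smooth muscle actin, stood at 5.63 and 4.50 CPM in the cold libraries, against 315 and 270 CPM in the RT libraries. Its log2 fold change, cold over RT throughout, was -5.86 (SE 0.22, adjusted p = 0.00162).

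The basal epithelial markers were Krt5, Krt14 and Acta2, so a called gene is itself among them. Their counts are therefore not independent of its fall. Cells led by these markers differed between the groups in the same direction as the called genes. They were 0 and 0 of the 128 members with other-lineage UMIs in cold, against 4 and 5 of the 96 in RT. The count of 0 allows a share up to 2.34% by 3 counts over the total and 2.84% by the exact binomial interval. The RT share was 9.38% (exact binomial interval 4.38% to 17.1%). Both intervals pool the cells of a group's libraries and cover counting error only, so they are no test of temperature. The summed level of the 3 basal markers was 6.14 and 4.50 CPM in the cold libraries against 336 and 301 CPM in the RT libraries. In the restricted set, Acta2 was 6.03 and 4.21 CPM in the cold libraries against 10.7 and 14 CPM in the RT libraries, with a log2 fold change of -1.30 and an adjusted p of 0.175. Acta2 is among the 44 markers behind that limit, which by itself removes cells rich in it, so the smaller fold is no separate finding. With Ccl5 required to be 0, no gene of the 10352 tested was called over all members (edgeR, 1020 at an unadjusted p under 0.05), but the folds stayed large. Acta2 was then -5.19, Myh11 -5.08, Tagln -4.08, Tpm2 -3.44 and Myl9 -3.08, with adjusted p between 0.140 and 0.146, and Col4a1 was -1.40 (adjusted p = 0.392).

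In the restricted set, 94 of 7939 genes changed (1.18%), of which 16 rose (0.202%) and 78 fell (0.982%). Of the 94, 1 gene (Col3a1) is itself among the 44 markers behind the limit, which leaves 93. For 115 genes tested, the mean in the group where they were higher was under 10% of that group's mean over all kept cells. Of these, 2 were called, Col3a1 among them. All 94 had the same sign over all members, 90 of them with an unadjusted p under 0.05 and 0 with an adjusted p under 0.05. The restricted members are part of all members and hold 6465055 of their 10626112 UMIs. The shared sign is thus largely built in and is no separate evidence. DESeq2 called 100 genes, 72 of them shared. The count rests on RT replicate 2: without it 15 genes were called, 2 higher and 13 lower, all 15 among the 94. It was 84 without RT replicate 1, 267 without cold replicate 1 and 211 without cold replicate 2. Most called genes that the naming rule picked lost the call without RT replicate 2, which leaves 1 RT library. The exceptions were Hspa1a, Hspa1b, Nr4a2, Fosl2, Ifngr1, Dennd4a, P2ry10 and Col3a1. In the restricted set the summed macrophage markers were 60.6 and 37.9 CPM in cold and 139 and 61.4 CPM in RT. The summed fibroblast markers were 150 and 77.3 CPM in cold and 382 and 112 CPM in RT. The median share of mitochondrial UMIs was 4.40% and 4.34% in cold and 4.99% and 5.29% in RT. The part of these differences in the results below was not tested. Of all genes in the restricted table, 48.8% had no overlap between the groups, so lack of overlap alone sets no gene apart.

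**Figure D3:**
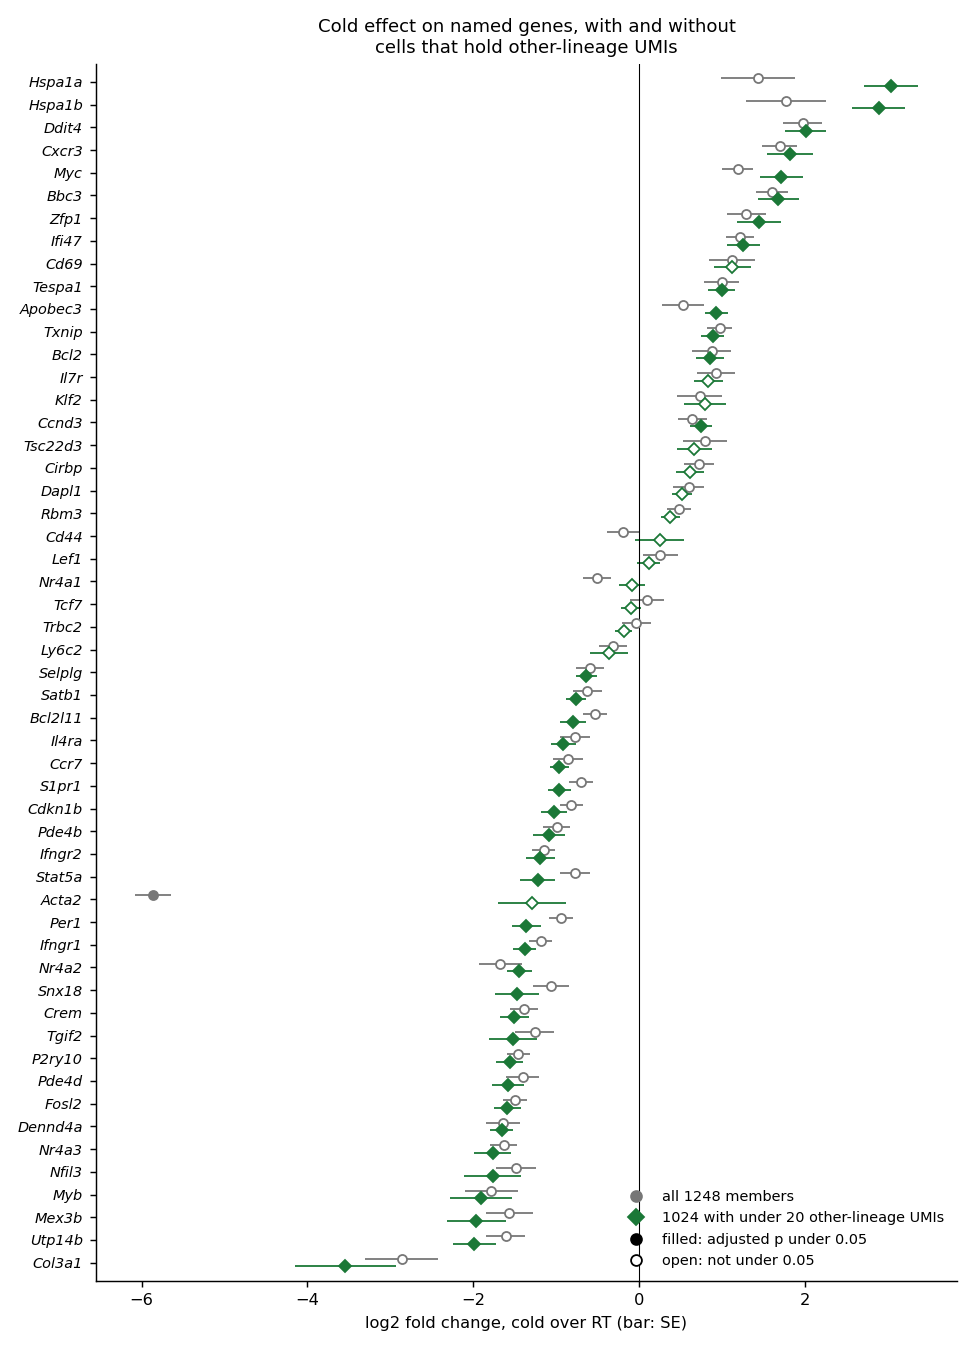
Log2 fold change, cold over RT, with its SE for genes named in the restricted set, over all 1248 members (grey circles) and in the restricted set of 1024 (green diamonds), filled where the adjusted p was under 0.05. Acta2, itself a marker behind the limit, was -5.86 over all members and -1.30 in the restricted set, while Ddit4, which is no such marker, was 1.97 and 2.01.

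The genes with the greatest log2 rise among those named were the inducible Hsp70 chaperones Hspa1a and Hspa1b, which bind unfolded proteins. They lie on chromosome 17 of GRCm38, Hspa1a at 34969190 to 34972156 and Hspa1b at 34956436 to 34959238, both on the minus strand. In the restricted set Hspa1a stood at 256 and 321 CPM in the cold libraries against 52.5 and 17.1 CPM in the RT libraries. Its log2 fold change was 3.04 (SE 0.33, adjusted p = 0.0051). Hspa1b stood at 136 and 147 CPM in cold against 28.9 and 9.33 CPM in RT, with a log2 fold change of 2.89 (SE 0.32, adjusted p = 0.0051). Both cold libraries were far above both RT libraries. Over all members the levels of Hspa1a were 321 and 449 CPM in cold against 205 and 71.4 CPM in RT, and the log2 fold change of 1.43 had an adjusted p of 0.334. Among the restricted members of at least 2000 UMIs, thinned as above, 25.9% and 32.7% of cold cells had a Hspa1a UMI, against 7.61% and 4.76% of RT cells. In kept cells with no Cd3 UMI, which also make this chaperone, the shares were 46.7% and 39.9% in cold against 32.6% and 24.7% in RT. Without thinning the member shares were 43.9% and 52.5% in cold against 12.7% and 10.2% in RT. Of 19 heat shock chaperones tested in the restricted set these 2 rose and 0 fell, and the list's median log2 fold change was 0.06 beside 0.01 over all genes. Hsp90aa1 was 1211 and 795 CPM in cold against 717 and 605 CPM in RT, with an adjusted p of 0.231.

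The promoters of this pair are shown because the genes are copies of each other that moved together. The windows run from 250 bases before to 50 bases after the start of the gene (RefSeq, GRCm38.p6), Hspa1a at chr17:34972107-34972406 and Hspa1b at chr17:34959189-34959488, both on the minus strand, and are written 5′ to 3′. Capitals mark GAANNTTC, the core of the heat shock element to which the factor Hsf1 binds, searched on both strands, on which it reads alike.
Hspa1a: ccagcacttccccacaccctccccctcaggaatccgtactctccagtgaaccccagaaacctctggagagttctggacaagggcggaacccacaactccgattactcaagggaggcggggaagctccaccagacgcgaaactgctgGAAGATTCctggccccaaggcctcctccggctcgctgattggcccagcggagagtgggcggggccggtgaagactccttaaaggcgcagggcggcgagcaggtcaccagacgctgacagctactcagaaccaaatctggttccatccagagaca
Hspa1b: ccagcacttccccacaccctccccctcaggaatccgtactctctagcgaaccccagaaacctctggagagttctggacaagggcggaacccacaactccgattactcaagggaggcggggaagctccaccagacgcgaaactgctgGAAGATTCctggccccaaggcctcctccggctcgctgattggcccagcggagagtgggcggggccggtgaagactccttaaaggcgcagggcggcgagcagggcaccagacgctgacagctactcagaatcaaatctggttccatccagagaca
Each window holds 1 match, which begins 104 bases before the start. Of 32851 promoter windows of the same length, 7.86% hold at least 1. The 2 windows are the same at 296 of 300 bases. The transcripts share a stretch of 2215 bases at 99.0% identity, but run on for 757 bases in Hspa1a and 589 bases in Hspa1b past it at the 3′ end, which is the end that this kit reads. The labels do not say how the authors' counting split reads of the shared stretch.

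Ddit4 also rose, a gene induced by stress and glucocorticoids whose product restrains the growth kinase mTORC1. It stood at 64.5 and 92.7 CPM in the restricted cold members against 17.1 and 18.7 CPM in the RT members, a log2 fold change of 2.01 (SE 0.25, adjusted p = 0.00826). Over all members it was 1.97 (adjusted p = 0.0797), so its size did not depend on the restriction but its call did. Txnip, a brake on glucose uptake, rose from the same list, with 281 and 312 CPM in cold against 167 and 136 CPM in RT. Of 22 genes of the glucocorticoid list tested, these 2 rose and Per1 and Bcl2l11 fell, with a median of -0.12. Tsc22d3, which encodes the glucocorticoid-induced protein Gilz, was 487 and 313 CPM in cold against 261 and 221 CPM in RT and did not pass (adjusted p = 0.175). Over all members no gene of any of the 21 lists passed by edgeR.

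Regulators of cell death changed in opposite roles. Bbc3, the pro-death protein Puma, rose to 57.1 and 68.1 CPM in cold against 22.5 and 14.8 CPM in RT (log2 fold change 1.68, SE 0.24, adjusted p = 0.016). The survival gene Bcl2 rose to 302 and 252 CPM in cold against 165 and 128 CPM in RT (adjusted p = 0.0492). Bcl2l11, the pro-death protein Bim, fell to 67.7 and 80.1 CPM in cold against 118 and 122 CPM in RT (adjusted p = 0.0485). These were the calls among 19 apoptosis regulators, whose median was -0.02. The calls of Bcl2 and Bcl2l11 lay close to the threshold, and neither held without cold replicate 1 (log2 fold changes 0.66 and -0.72). Bbc3, Bcl2 and Bcl2l11 all lost the call without RT replicate 2. Their log2 fold changes were then 1.40, 0.69 and -0.75.

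Myc, which drives growth and division, rose to 45.7 and 60.4 CPM in cold against 17.1 and 13.2 CPM in RT (log2 fold change 1.71, SE 0.26, adjusted p = 0.0188). The cyclin gene Ccnd3 rose to 266 and 268 CPM in cold against 147 and 152 CPM in RT, and Cdkn1b, the cell cycle inhibitor p27, fell to 66.6 and 73.7 CPM in cold against 146 and 124 CPM in RT. Those were the 2 calls among 23 cell cycle genes, of which 17 lay above 0 with a median log2 fold change of 0.45. Over all genes of the restricted set with a unique symbol, 4046 of 7932 lay above 0. Myc stood apart from the rest of the activation list, where the calls were falls.

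Of 37 activation and immediate early genes tested, 6 fell and 1, Myc, rose, with a median of 0.03. Nr4a3, an orphan nuclear receptor switched on by T cell receptor and cAMP signals, fell to 36.5 and 63.9 CPM in cold against 156 and 152 CPM in RT (log2 fold change -1.76, SE 0.22, adjusted p = 0.00827). Its relative Nr4a2 fell to 80.8 and 70.2 CPM in cold against 190 and 201 CPM in RT (-1.44, SE 0.16, adjusted p = 0.0051). Fosl2, an AP-1 factor, fell to 92.2 and 116 CPM in cold against 329 and 258 CPM in RT (-1.59, SE 0.16, adjusted p = 0.0051). The other falls were Rgs2, a brake on G protein signals, Tnfaip3, a brake on NF-κB, and Dusp5, a phosphatase of ERK. Nr4a1, the family member most used as a sign of recent receptor signals, was 95.7 and 122 CPM in cold against 110 and 105 CPM in RT, and its groups overlapped. Cd69, an early activation gene, was higher at 202 and 183 CPM in cold against 109 and 61.4 CPM in RT but missed the threshold (log2 fold change 1.12, SE 0.22, adjusted p = 0.0508). Nor did Jun pass, at 198 and 123 CPM in cold against 72.8 and 33.4 CPM in RT (adjusted p = 0.0579). Of the 37 genes, 19 lay above 0, beside 4046 of 7932 over all genes.

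Genes of the cAMP pathway, which carries signals from G protein-coupled receptors, fell where they were called. Crem, a transcription factor induced by cAMP, fell to 55.3 and 74.4 CPM in cold against 160 and 180 CPM in RT (-1.50, SE 0.17, adjusted p = 0.00569). The phosphodiesterase Pde4d, which breaks cAMP down, fell to 25.9 and 23.9 CPM in cold against 70.7 and 71.5 CPM in RT (-1.58, SE 0.19, adjusted p = 0.00732). Pde4b fell to 64.9 and 56.2 CPM in cold against 146 and 103 CPM in RT (adjusted p = 0.0376). These were the 3 calls among 11 genes of the list, 1 of which lay above 0 (4046 of 7932 over all genes), with a median of -0.52.

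Nr4a2 and Nr4a3 are shown with their promoters because both fell and both are known targets of cAMP signalling. Capitals mark TGACG on either strand (CGTCA where the other strand holds it), the core of the cAMP response element. The windows are again of 300 bases from RefSeq, GRCm38.p6, with Nr4a2 at chr2:57123954-57124253 on the minus strand and Nr4a3 at chr4:48045055-48045354 on the plus strand.
Nr4a2: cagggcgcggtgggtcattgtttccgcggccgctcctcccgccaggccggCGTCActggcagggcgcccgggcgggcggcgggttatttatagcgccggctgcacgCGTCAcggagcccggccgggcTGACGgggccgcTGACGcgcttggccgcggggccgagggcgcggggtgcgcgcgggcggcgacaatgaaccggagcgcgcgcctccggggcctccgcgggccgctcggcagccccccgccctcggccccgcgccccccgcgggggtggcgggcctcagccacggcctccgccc
Nr4a3: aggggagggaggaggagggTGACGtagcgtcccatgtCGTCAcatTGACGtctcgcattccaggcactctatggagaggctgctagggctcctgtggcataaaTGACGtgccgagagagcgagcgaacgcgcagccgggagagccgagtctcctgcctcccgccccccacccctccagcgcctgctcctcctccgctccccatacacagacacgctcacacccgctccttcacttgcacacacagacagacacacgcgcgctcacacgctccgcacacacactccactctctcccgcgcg
Each window holds 4 matches, and no other window of a gene that fell holds as many. Among all 32851 windows, 0.231% hold 4 or more and 20.8% hold at least 1. Of the 89 windows of genes that fell, which cover 66 of the 78 genes, 39.3% hold at least 1, and 5 of the 16 windows of genes that rose (31.2%) do, which cover 12 of the 16 genes. The whole element, TGACGTCA, which reads alike on both strands and contains the core, was in 0 of the 89 and 0 of the 16 windows and in 1.79% of all. These are matches of letters in a short window and say nothing of binding.

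Of the genes that define naive cells, the homing receptor changed and the transcription factors Lef1 and Tcf7 did not pass. Ccr7 (chromosome 11) fell to 475 and 524 CPM in cold against 922 and 905 CPM in RT (log2 fold change -0.96, SE 0.11, adjusted p = 0.00548). S1pr1 (chromosome 3) fell to 102 and 112 CPM in cold against 210 and 182 CPM in RT (-0.96, SE 0.14, adjusted p = 0.0161). Satb1, a chromatin organiser of T cells, fell to 408 and 407 CPM in cold against 706 and 599 CPM in RT (-0.76, SE 0.12, adjusted p = 0.0225). These 3 were the calls among 25 naive and quiescence genes, with a median of -0.10. Satb1 was not called at under 10 other-lineage UMIs per cell (log2 fold change -0.60, adjusted p = 0.0682) or without RT replicate 1 (-0.67). Without RT replicate 2, Ccr7, S1pr1 and Satb1 all lost the call, with log2 fold changes of -0.95, -1.05 and -0.86. Lef1 was 316 and 291 CPM in cold against 292 and 239 CPM in RT, with a log2 fold change of 0.11 (SE 0.14). Tcf7 was 327 and 313 CPM in cold against 322 and 325 CPM in RT, and its log2 fold change was -0.10 (SE 0.12). Dapl1 and Il7r lay higher in both cold libraries but missed the threshold, with log2 fold changes of 0.52 (SE 0.12, adjusted p = 0.0753) and 0.83 (SE 0.17, adjusted p = 0.0566). Klf2, which drives S1pr1, was 885 and 497 CPM in cold against 439 and 326 CPM in RT (adjusted p = 0.182). Ccr7 and S1pr1 were thus called lower, and Klf2 and Il7r had their higher values in cold.

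Among 21 trafficking and adhesion receptors, 1 rose and 3 fell. The rise was Cxcr3, the receptor that draws effector and memory cells to inflamed tissue, at 47.9 and 63.2 CPM in cold against 18.2 and 11.7 CPM in RT (log2 fold change 1.82, SE 0.27, adjusted p = 0.0188). The RT levels rest on 17 and 15 UMIs, the cold levels on 135 and 90. In restricted members thinned to 2000 UMIs, Cxcr3 was found in 3.14% and 9.88% of cold cells. The RT shares were 3.55% and 0.68%, so these groups overlapped. The falls were Ccr7, S1pr1 and Selplg, the selectin ligand Psgl1, at 262 and 285 CPM in cold against 423 and 377 CPM in RT. The call of Selplg was not firm. At under 10 other-lineage UMIs per cell its log2 fold change was -0.53 and it was not called (adjusted p = 0.111). Cxcr3 was also the only call among 25 effector and memory genes tested in the restricted set. With under 10 other-lineage UMIs per cell its log2 fold change was 0.89 (adjusted p = 0.277), and without RT replicate 2 it was 1.52 (adjusted p = 0.128). Ly6c2 was 185 and 332 CPM in cold against 346 and 272 CPM in RT, and Cd44, which rises on antigen contact, was 31.9 and 59.7 CPM in cold against 35.3 and 34.2 CPM in RT. Neither passed, and for both the groups overlapped.

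Receptors for interferon gamma fell as a pair. Ifngr1 fell to 84.4 and 96.2 CPM in cold against 230 and 211 CPM in RT (log2 fold change -1.38, SE 0.14, adjusted p = 0.0051), and Ifngr2 fell to 39.7 and 46.4 CPM in cold against 96.4 and 87.8 CPM in RT (-1.19, SE 0.17, adjusted p = 0.0156). Il4ra, a receptor chain for interleukins 4 and 13, fell to 64.2 and 73.7 CPM in cold against 121 and 122 CPM in RT (-0.91, adjusted p = 0.0292). Il21r and the signal transducer Stat5a fell as well, so that 5 of 29 cytokine receptor and JAK-STAT genes fell and 1, Bcl2, rose, with a median of -0.14. The chains Il2rb and Il2rg and the kinase Jak1 did not pass.

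Interferon-stimulated genes lay above 0 in 29 of 32 cases (4046 of 7932 over all genes) with a median log2 fold change of 0.80. Only 1 of them passed, Ifi47, a GTPase of the defence against intracellular pathogens. It rose to 125 and 181 CPM in cold against 61.1 and 57.5 CPM in RT (log2 fold change 1.26, SE 0.20, adjusted p = 0.0216). For several others cold replicate 2 alone was high. Ifit1 was 7.80 and 133 CPM in cold against 2.14 and 3.11 CPM in RT (adjusted p = 0.193). Isg15 was 27.6 and 173 CPM in cold against 33.2 and 37.3 CPM in RT (adjusted p = 0.397). In Ifit1 and Isg15 cold replicate 1 thus lay nearer to the RT libraries than to cold replicate 2.

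**Figure D4:**
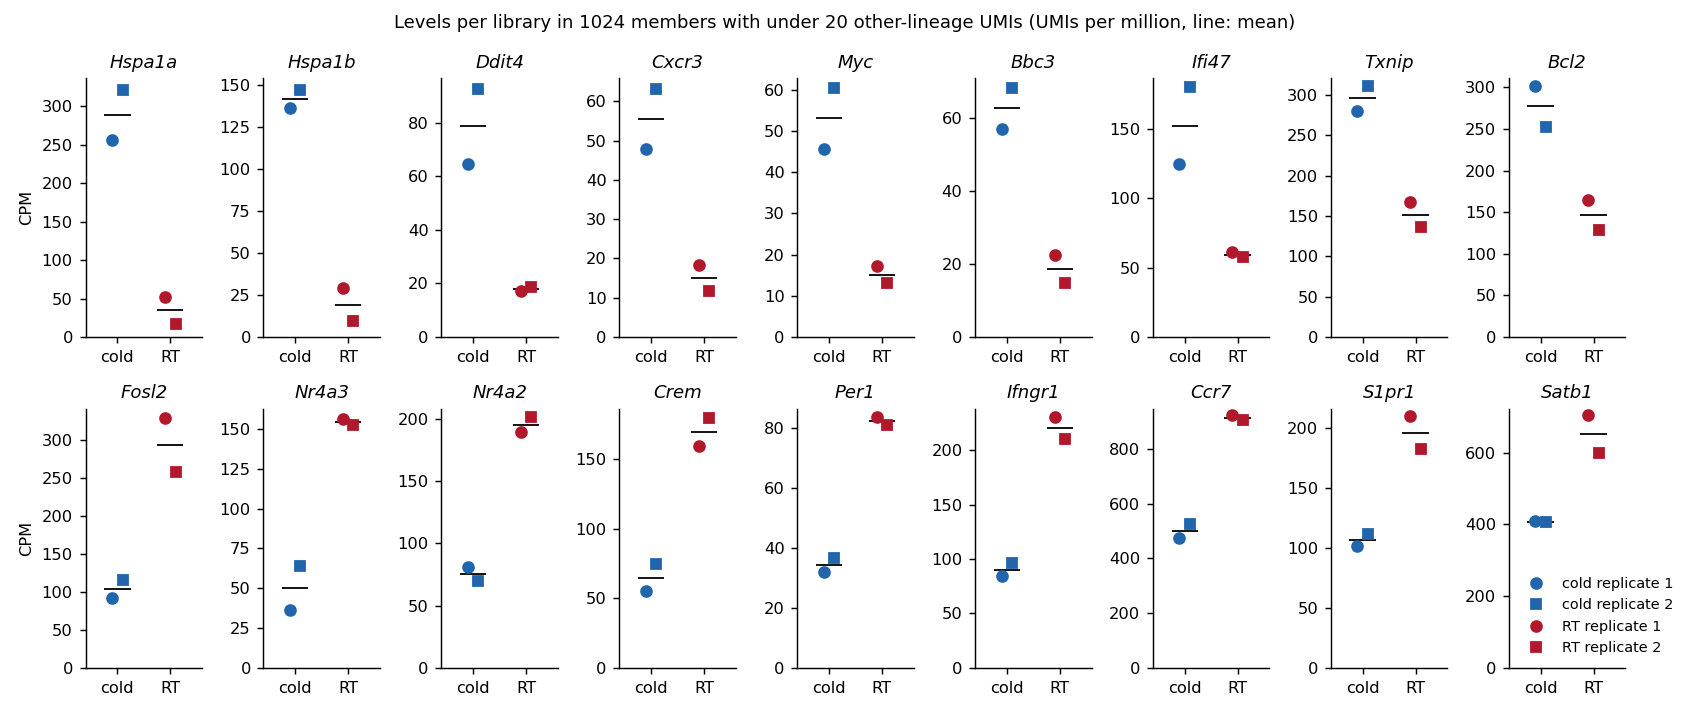
CPM per library of 9 genes that rose (upper row) and 9 that fell (lower row) in the restricted set, with cold left of RT and a line at the mean of 2 libraries. Hspa1a was 256 and 321 CPM in cold against 52.5 and 17.1 CPM in RT, and Ccr7 was 475 and 524 CPM in cold against 922 and 905 CPM in RT.

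Clock genes went down where called. Per1, a core clock gene that is also induced by glucocorticoids and cAMP, fell to 31.9 and 36.5 CPM in cold against 83.5 and 80.8 CPM in RT (log2 fold change -1.36, SE 0.18, adjusted p = 0.00918). Nfil3 fell to 5.67 and 5.62 CPM in cold against 16.1 and 20.2 CPM in RT (adjusted p = 0.0485). That call lay close to the threshold. At under 10 other-lineage UMIs per cell Nfil3 was not called (log2 fold change -1.80, adjusted p = 0.0629), and DESeq2 gave it no adjusted p. Per1 and Nfil3 were 2 of 11 clock genes tested, with a median of -0.56. The time of day at which tissue was taken is not given in the labels.

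The cold-inducible RNA-binding proteins Cirbp and Rbm3, which rise in many cells when temperature drops, were higher in both cold libraries and missed the threshold. Cirbp was 161 and 132 CPM in cold against 96.4 and 87.1 CPM in RT (log2 fold change 0.61, SE 0.17, adjusted p = 0.131). Rbm3 was 1046 and 1191 CPM in cold against 778 and 841 CPM in RT (0.38, SE 0.11, adjusted p = 0.162). In the restricted set 0 genes passed by edgeR among 32 of T cell receptor signalling (median -0.04), 35 of oxidative phosphorylation (-0.03), 19 of glycolysis (-0.08), 18 of MHC class I presentation (0.14), 19 of the unfolded protein response (-0.16), 16 of cholesterol and fatty acid synthesis (-0.22), 10 of hypoxia (-0.43) and 6 co-inhibitory receptors (0.37).

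Outside the lists, the genes that the naming rule picked included Dennd4a, an activator of Rab10, which fell to 76.9 and 85.7 CPM in cold against 257 and 226 CPM in RT (log2 fold change -1.66, SE 0.14, adjusted p = 0.0051). P2ry10, a lysophospholipid receptor of lymphocytes, fell to 75.5 and 97.6 CPM in cold against 261 and 216 CPM in RT (-1.56, SE 0.16, adjusted p = 0.0051). Myb, a transcription factor of progenitors and of memory cells with stem-like traits, fell to 27.3 and 85.7 CPM in cold against 190 and 180 CPM in RT (adjusted p = 0.0492). Its 2 cold libraries were far apart, and DESeq2 did not call it (adjusted p = 0.222 by DESeq2). At under 10 other-lineage UMIs per cell Myb was not called either (log2 fold change -1.89, adjusted p = 0.0532). Tespa1, which links the T cell receptor to calcium release, rose to 137 and 131 CPM in cold against 70.7 and 57.5 CPM in RT (0.99, SE 0.16, adjusted p = 0.0273). Apobec3, a restriction factor against retroviruses, rose to 218 and 242 CPM in cold against 110 and 116 CPM in RT (0.93, SE 0.14, adjusted p = 0.0181), and Zfp1, a zinc finger gene, rose by 1.45 on the log2 scale. Utp14b, Mex3b, Tgif2 and Snx18 fell, by 1.47 to 1.99 on the log2 scale. Col3a1, a collagen gene that T cells do not make, fell by 3.54 on the log2 scale. Its mean in the restricted RT members, the group where it was higher, was under 10% of its mean over all kept RT cells. Col3a1 is itself 1 of the 5 fibroblast markers summed above.

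The other T cells of the same libraries served as a comparison of cold effects. The difference between the effect in members and in Ccl5-high CD8 cells was tested per gene as an interaction with the library as a block, over all members and 335 Ccl5-high cells. By edgeR 0 of 10043 genes passed (0%), with 357 at an unadjusted p under 0.05, and DESeq2 also called 0. In the restricted sets it was 0 of 7686 (353 at an unadjusted p under 0.05). In data simulated at this size, the restricted interaction test found 7.59% of genes with a 2.0-fold difference and 45.3% of those with a 4.0-fold difference. Most 2.0-fold differences were thus missed even there. The simulation gave every gene the same fixed dispersion and drew the classes independently, so recovery in the real counts may differ. Side by side, the restricted Ccl5-high cells had log2 fold changes of 3.99 for Hspa1a (SE 0.40), -2.15 for Fosl2 (SE 0.27), -2.04 for Nr4a3 (SE 0.32), -1.79 for Crem (SE 0.27) and -1.07 for Ccr7 (SE 0.32). Their own fit called 7 of 6071 genes, 2 higher and 5 lower. Dapl1 was -0.22 (SE 0.34) there, with levels of 103 and 208 CPM in cold against 166 and 163 CPM in RT.

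Against 363 CD4 cells, 2 of 10266 genes had a lower cold effect in the members (0.0195%), Stc2 and Slc12a2, and 0 a higher one (577 at an unadjusted p under 0.05). In the restricted sets these were not called and 2 others were, both with a higher effect in the members, among 7197 tested (0.0278%). Cxcr6 was 59.9 and 64.6 CPM in cold against 34.3 and 21 CPM in RT in the members, and 7.59 and 25.4 CPM in cold against 58.9 and 76.9 CPM in RT in the CD4 cells. The difference of cold effects was 3.32 (log2, SE 0.53, adjusted p = 0.0131). S100a6, a calcium-binding protein of activated and memory cells, was 153 and 147 CPM in cold against 127 and 79.3 CPM in RT in the members, and 159 and 369 CPM in cold against 632 and 997 CPM in RT in the CD4 cells (difference 2.21, SE 0.38, adjusted p = 0.021). For both genes the CD4 cells had their lower values in cold and the members their higher values in cold. The 4 regulatory T cell markers summed to 416 and 568 CPM in cold against 798 and 808 CPM in RT in these CD4 cells, with Foxp3 at 0 by their gate, and the 4 CD4 T markers to 756 and 835 CPM in cold against 1200 and 1074 CPM in RT. Among them Icos was 230 and 344 CPM in cold against 498 and 461 CPM in RT. The part of these markers in the difference was not tested. The CD4 cells' own fit called 0 of 4912 genes by edgeR (264 at an unadjusted p under 0.05). In those CD4 cells Hspa1b was 106 and 155 CPM in cold against 32.1 and 14.9 CPM in RT (log2 fold change 2.62, SE 0.41). Hspa1a was 266 and 323 CPM in cold against 171 and 39.7 CPM in RT there (1.67, SE 0.45). Crem had a log2 fold change of -0.47 (SE 0.28) and Ccr7 one of -0.39 (SE 0.34). None of these genes passed in the CD4 cells.

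**Figure D5:**
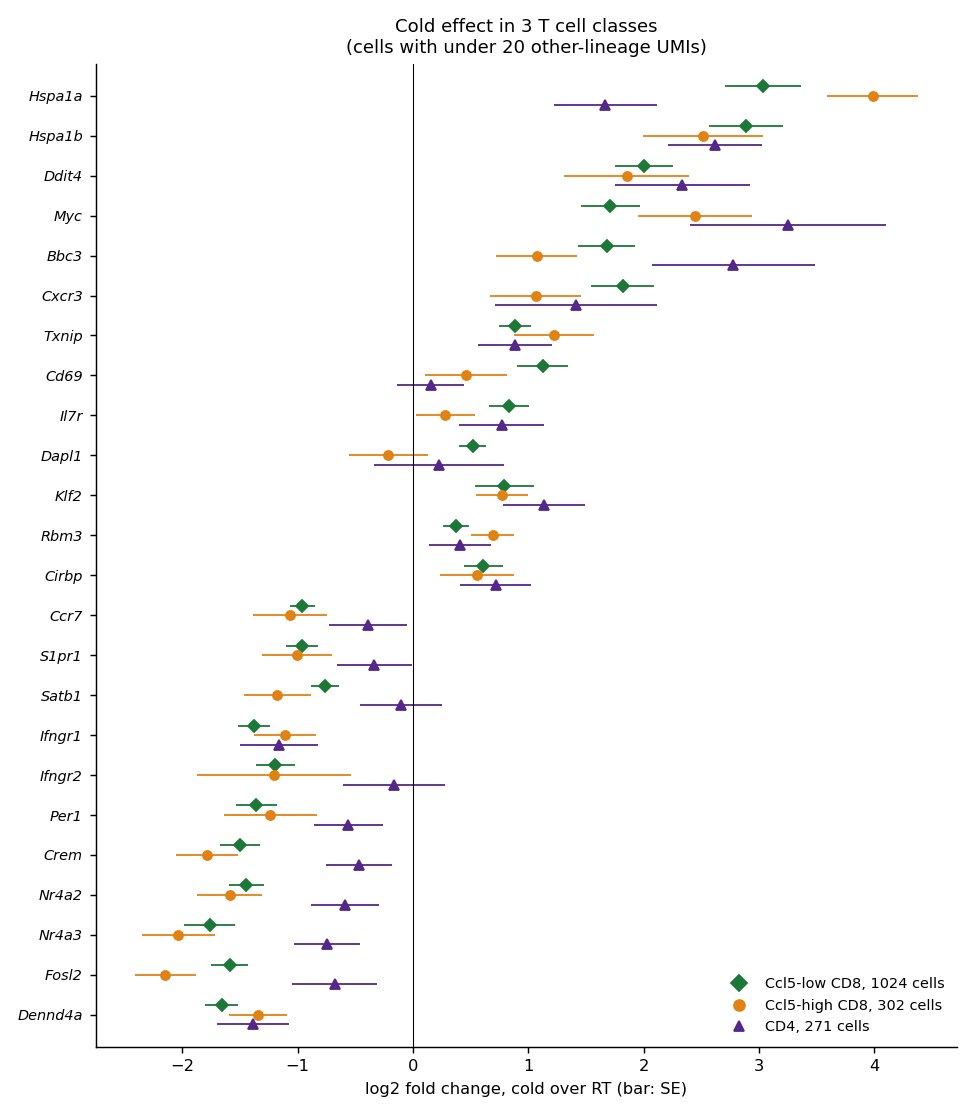
Log2 fold change, cold over RT, with its SE for 24 genes in restricted Ccl5-low CD8 cells (green), Ccl5-high CD8 cells (orange) and CD4 cells (purple). Fosl2 was -1.59 in the Ccl5-low cells, -2.15 in the Ccl5-high cells and -0.68 in the CD4 cells, and none of the genes drawn passed the test of a difference between classes.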

How the data were processed

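Whole-number UMI counts per gene and cell barcode were deposited by the authors for 4 libraries and 31053 genes. They were made with Cell Ranger 3.0.2 on mm10 (GRCm38), per the submitters' processing notes, which also name Seurat. The members, gene lists and tests were chosen with earlier results of these data known. Counts were summed per library over the members, since cells are not replicates. Genes were tested with edgeR 4.0.16 (quasi-likelihood, TMM scaling, filterByExpr, Benjamini-Hochberg adjusted p under 0.05), in R 4.3.3, and every adjusted p in the text is from that test unless another is named. DESeq2 1.42.0 was an alternative. Class differences were interactions with the library as a block. Shares were compared by exact permutation. Summed member UMIs ranged from 1712689 to 3909026 per library over all members and from 933595 to 2821183 in the restricted set. Doublets, called by similarity to simulated pairs, were kept, and removed as an alternative. Genes named are the 12 largest called changes each way at a mean of 20 CPM or more, up to 4 called genes per list and a fixed list, 2 genes of which are not reported here. Jun, Ifit1, Isg15, Hsp90aa1, Il2rb, Il2rg, Jak1, Dusp5, Il21r and Cxcl14 were named after their values were seen. On simulated data the test over all members recovered 44.1% of 2.0-fold and 90.2% of 4.0-fold changes, and in the restricted set 35.4% and 96.7%. The simulated counts had the same fixed dispersion for every gene, so recovery in the real counts may differ. Replicate numbers were not treated as pairs. The correlation of same-numbered libraries' deviations was -0.0196 over all members and 0.126 in the restricted set, from 2 pairs. Promoters are from RefSeq (GRCm38.p6) and gene positions from GENCODE M21.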

Additional observations from a re-analysis of the deposited data

Results flagged for a closer look

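For 4 genes the effect of cold differed between the Ccl5-low CD8 cells and the CD4 cells by edgeR's interaction test. Over all members, Stc2, a secreted glycoprotein, had a difference of -3.33 (log2, SE 0.31, adjusted p = 0.0341), with 69.3 and 72.7 CPM in cold against 120 and 31.2 CPM in RT in the members and 157 and 189 CPM in cold against 30.1 and 6.84 CPM in RT in the CD4 cells. Slc12a2, a chloride cotransporter of secretory epithelium, had a difference of -2.09 (SE 0.22, adjusted p = 0.0438), with 356 and 703 CPM in cold against 145 and 143 CPM in RT in the members and 754 and 1368 CPM in cold against 76.5 and 61.6 CPM in RT in the CD4 cells. In the restricted sets the difference for Slc12a2 was 0.30 (SE 0.52). Luminal epithelial markers summed to 12921 and 13142 CPM in cold against 6622 and 6608 CPM in RT in kept cells with no Cd3 UMI, and their part in these 2 results was not tested.

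In the restricted sets the difference was 3.32 for Cxcr6 (SE 0.53, adjusted p = 0.0131) and 2.21 for S100a6 (SE 0.38, adjusted p = 0.021). Over all members these were 3.32 (adjusted p = 0.240) and -0.04, so the call of Cxcr6 and the size for S100a6 depended on the restriction.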

How the results depend on the processing

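Over all members the count of 7 genes became 79 with DESeq2, 621 with no low-count filter, 34 with 2 or more Cd8 UMIs, 0 with Ccl5 at 0 and 94 (0 shared) in the restricted set. Leaving out a library gave 4 (without RT replicate 1) to 155 (without cold replicate 2), and 41 without cold replicate 1. The restricted count of 94 became 434 with no filter and 165 with other-lineage UMIs under 0.5% of the cell, and leaving out a library gave 15 (without RT replicate 2) to 267 (without cold replicate 1). With the replicate number as a block the counts were 1 over all members and 538 in the restricted set, with 2 pairs and no evidence in the labels that a number pairs libraries. The difference from Ccl5-high cells, 0 genes, became 86 with no filter, 1 with 2 or more Cd8 UMIs and 0 to 90 without a library. The difference from CD4 cells, 2 genes, became 87 with no filter, 0 with Ccl5 at 0, 0 with 2 or more Cd8 UMIs, 0 with no UMI of Cd4, Foxp3 or Trdc, 0 without doublets and 0 to 169 without a library. The cause was not tested. The members' share of the CD8 gate, 2.66 points higher in cold, was -2.02 points after thinning and -3.23 to 8.56 without a library. Their share of kept cells stayed higher in cold in every alternative run, by 3.01 to 8.05 points without a library. Of 39 called genes named in the restricted set, 31 lost the call without RT replicate 2, and no named gene that was called changed sign in any alternative run.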
